A study of Homo sapiens with 3 samples.

Results

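The pericentromeric duplications on the long arm of chromosome 1 were described here as all p53 ChIP-seq peaks with a summit between 142 and 150 Mb of chr1 (build hg19), an interval of 8 Mb called 1q21 below. It held 565 of the 35740 peaks deposited for 3 libraries, of which 260 came from ERG shRNA cells, 10 from ERG shRNA 2 cells and 295 from control cells. All 3 libraries were made from VCaP, a cell line established from a human prostate cancer. ERG shRNA cells carried a short hairpin RNA against ERG, ERG shRNA 2 cells carried the ERG hairpin numbered 2, and control cells carried a hairpin against luciferase. ERG is an ETS-family transcription factor, and the comparison asks how p53 peaks differ when ERG is targeted. The labels of the ERG shRNA and control libraries and the design text name the p53 antibody DO-1, whereas no antibody is named for ERG shRNA 2. Each library pooled at least 3 immunoprecipitations and there was 1 library per group, so differences between libraries have no replicate check and no p-value. The interval was chosen with its peak density known, so the members were chosen by their summit positions in a region selected on peak density, and their counts and densities are a description of that choice.

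The ERG shRNA 2 library stands apart from the others. Its list has 433 peaks, against 17321 in ERG shRNA and 17986 in control, although it had 5.64 times the tags of control. Its header carries another date-like tag and names its input differently, with an equal input total of 14360465 tags, so hairpin and batch cannot be told apart, and its values are given separately throughout. The effect of the hairpins on ERG was not analysed here.

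The protein p53 is a transcription factor that binds DNA through its core domain. Segmental duplications are long blocks of sequence that occur in several nearly identical copies. The bands next to the centromere of chromosome 1 are among the regions of the human genome where such blocks are dense, and they hold the NBPF genes, which encode repeats of the Olduvai domain, and the NOTCH2NL genes, partial copies of NOTCH2 that are expressed in the developing human cortex. In a sequencing experiment a short read from such a block can match several copies equally well, so the number of reads assigned to a position depends on how the aligner treats reads with several matches. The treatment of such reads was not given in the sources used here. Tags were 83 bp long in ERG shRNA, 84 bp in ERG shRNA 2 and 83 bp in control, per the file headers.

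Examples of this identity can be read from the RefSeq promoters of these families, which are given on build GRCh38.p14 and were therefore not matched to peaks. The table named 21 NBPF genes on chromosome 1, of which 14 were protein coding, and 4 NOTCH2NL genes. Promoters of NOTCH2 and the 4 NOTCH2NL genes shared an identical run of 148 to 268 bases in 10 of 10 pairs. Among 12 NBPF genes with a promoter, 6 of 66 pairs shared a run of at least the length of 1 tag. Those 6 pairs involved 9 genes, with runs of 138 to 204 bases. Only the bases around each annotated start were compared, so a pair without such a run may share one elsewhere. The genes were taken from all of chromosome 1, not only from 1q21, and the longest run over all promoters of a gene was used. The next stretch, which lies before the annotated start, is shown because its 141 bases are the same in NOTCH2 (chr1:120069663-120069803, minus strand), NOTCH2NLA (chr1:146229037-146229177, minus strand), NOTCH2NLB (chr1:148679779-148679919, minus strand), NOTCH2NLC (chr1:149390446-149390586, plus strand) and NOTCH2NLR (chr1:120723772-120723912, plus strand). The stretch after it is shown because its 185 bases are the same in NBPF15 (chr1:144461670-144461854, minus strand) and NBPF9 (chr1:149103562-149103746, minus strand). Both are written 5′ to 3′ on the strand of the gene, and the capitals mark the first 83 bases, the length of 1 tag.
NOTCH2NLA: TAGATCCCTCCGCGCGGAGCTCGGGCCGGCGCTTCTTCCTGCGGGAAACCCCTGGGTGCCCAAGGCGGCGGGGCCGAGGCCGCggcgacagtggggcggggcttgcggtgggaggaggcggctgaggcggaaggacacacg
NBPF15: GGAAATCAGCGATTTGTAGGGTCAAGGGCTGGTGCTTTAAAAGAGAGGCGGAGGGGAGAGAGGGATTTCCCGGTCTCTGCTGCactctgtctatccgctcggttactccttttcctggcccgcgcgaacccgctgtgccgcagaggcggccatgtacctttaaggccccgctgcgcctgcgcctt
A tag with the bases in capitals would match each of the named copies without a difference. Whether the peaks of 1q21 are at such copies was not tested, since the hg19 genome was not used here.

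In each list 1q21 took a larger share of chromosome 1 peaks than its length. It held 260 of 1390 chromosome 1 peaks in ERG shRNA (18.7%, exact 95% interval 16.7 to 20.9), 10 of 12 in ERG shRNA 2 (83.3%, 51.6 to 97.9) and 295 of 1369 in control (21.5%, 19.4 to 23.8). Of the whole lists it held 260 of 17321 peaks in ERG shRNA, 10 of 433 in ERG shRNA 2 (2.31%) and 295 of 17986 in control (1.64%). The ERG shRNA density was 32.5 peaks per Mb in 1q21, against 4.68 per Mb over the other 241.2 Mb of chromosome 1. For ERG shRNA 2 it was 1.25 per Mb, against 2 peaks in all on the rest of the chromosome. For control it was 36.9 per Mb, against 4.45 per Mb. The density ratio was 6.94 (95% interval 6.04 to 7.95) in ERG shRNA and 8.28 (7.26 to 9.43) in control. Intervals here and below cover counting error only and treat peaks as independent, which peaks lying next to each other are not.

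The interval is bounded by a stretch without called peaks on its centromeric side and by thinning peaks on the other. Whether tags could be aligned in that stretch was not examined, and the 241.2 Mb of the rest of chromosome 1 include it. No list had a peak at 141 to 142 Mb, and the last summits before the interval were at 121275238 in ERG shRNA, 121133778 in ERG shRNA 2 and 121317652 in control. The first summits inside were at 142545532 in ERG shRNA, 142569666 in ERG shRNA 2 and 142552935 in control. The last peak inside had a pileup of 3 and a fold of 3.31 in ERG shRNA, a pileup of 11.6 and a fold of 4.19 in ERG shRNA 2, and a pileup of 6 and a fold of 4.64 in control. The first peak beyond 150 Mb had a pileup of 3 and a fold of 3.31 in ERG shRNA, and a pileup of 5 and a fold of 3.65 in control. Beyond the interval, the window at 150 to 151 Mb held 4 peaks in ERG shRNA, 0 in ERG shRNA 2 and 12 in control. On the short-arm side of the centromere, the window at 120 to 121 Mb held 11 peaks in ERG shRNA, 0 in ERG shRNA 2 and 19 in control.

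Every 1 Mb window of the interval held ERG shRNA and control peaks, and the window at 148 to 149 Mb held the most in each list. In ERG shRNA the 8 windows of 1 Mb from 142 Mb onwards held 39, 42, 21, 25, 16, 18, 79 and 20 peaks. In ERG shRNA 2 they held 3, 2, 0, 0, 0, 0, 4 and 1 peaks. In control they held 16, 48, 42, 17, 17, 31, 86 and 38 peaks. The 242 windows of the rest of chromosome 1 had a median of 4 peaks in both ERG shRNA and control, and the fullest of them, the first 1 Mb of the chromosome, held 56 in ERG shRNA and 72 in control. After that window the fullest held 17 in ERG shRNA, a number passed by 7 of the 8 windows of 1q21, and 19 in control, passed by 5 of the 8.

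**Figure D1:**
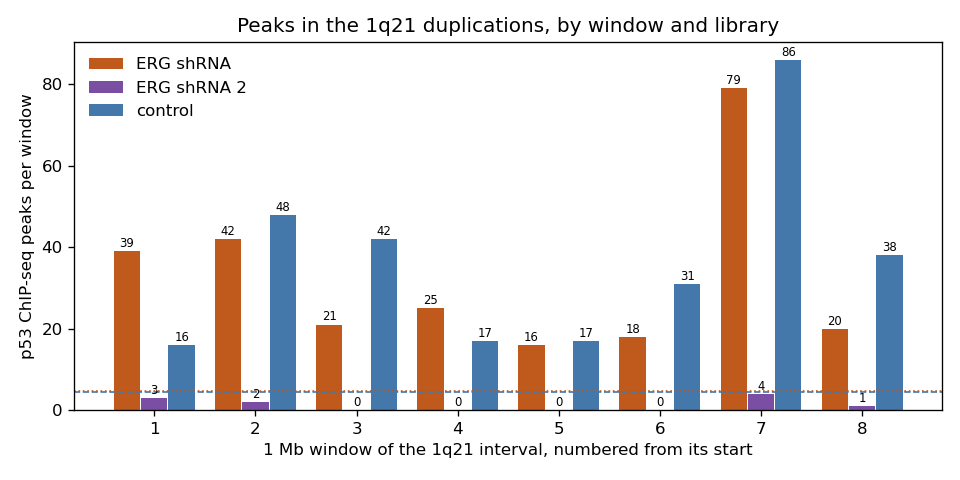
Peaks per 1 Mb window of 1q21 (windows numbered 1 to 8 from the start of the interval) in ERG shRNA, ERG shRNA 2 and control. The dotted and dashed lines, nearly on each other, are the mean peaks per Mb of the rest of chromosome 1 in ERG shRNA (4.68) and control (4.45); window 7 is the fullest in each library, with 79, 4 and 86 peaks.

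The ERG shRNA and control lists divided the windows unevenly although their totals were similar. Of all peaks of the ERG shRNA and control lists, ERG shRNA supplied 49.1%, and in 1q21 it supplied 260 of 555 (46.8%, exact 95% interval 42.6 to 51.1). At 142 to 143 Mb it supplied 70.9% (57.1 to 82.4), with 39 peaks against 16 in control. At 144 to 145 Mb it supplied 33.3% (22.0 to 46.3), with 21 peaks against 42, and at 149 to 150 Mb 34.5% (22.5 to 48.1), with 20 against 38. At 148 to 149 Mb the lists were nearly equal, ERG shRNA supplying 47.9%. These intervals treat neighbouring peaks as independent and compare 1 library with 1 library, so they do not decide whether a window differed. Scaled to the length of each list, the window at 142 to 143 Mb held 0.225% of the peaks in ERG shRNA, 0.693% in ERG shRNA 2 (3 peaks) and 0.0890% in control.

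At 100 kb the profile was patchy. Of 80 bins, 50 held an ERG shRNA peak, 5 an ERG shRNA 2 peak and 53 a control peak. Both ERG shRNA and control were present in 42 bins, ERG shRNA without control in 8, control without ERG shRNA in 11, and neither in 19, and the first 5 bins were empty in all lists. The 10 fullest bins of ERG shRNA held 55% of its peaks and the 10 fullest of control 58.6% of its peaks, and 4 bins were in both sets of 10. Across the 61 bins with a peak of either list the counts had a Spearman rho of 0.55, a description over bins of 1 chromosome that share an input total and an alignment. The bin at 142.8 Mb held 18 ERG shRNA peaks against 5 in control, and the bin at 143.2 Mb 14 against 4. In the other direction the bin at 144.3 Mb held 5 ERG shRNA peaks against 21 in control, and the bin at 147.9 Mb 9 against 25. These bins were picked as the most uneven, so their sizes are descriptions.

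**Figure D2:**
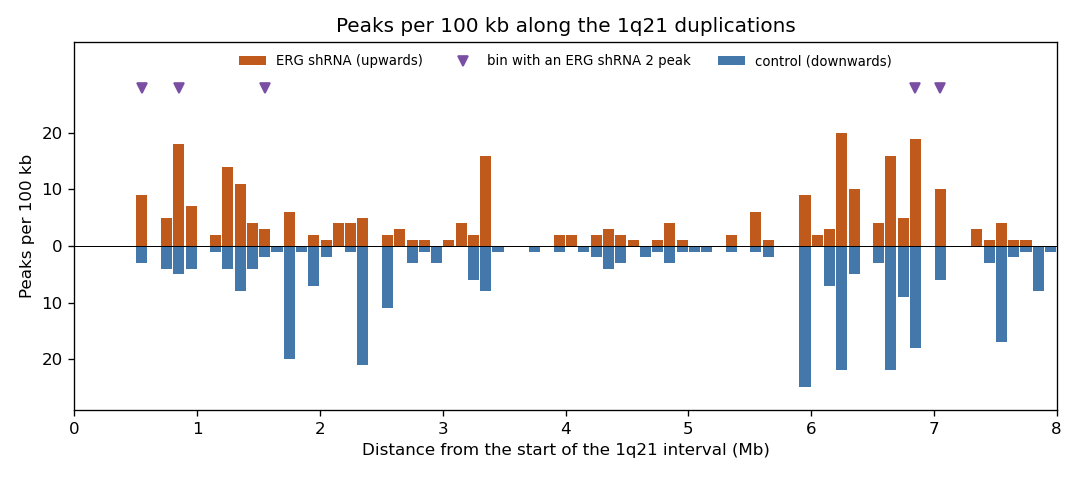
Peaks per 100 kb against the distance from the start of 1q21 in Mb, with ERG shRNA drawn upwards, control drawn downwards and triangles over the 5 bins with an ERG shRNA 2 peak. The fullest bin held 20 peaks in ERG shRNA and 25 in control, and 4 of the 10 fullest bins of each list are the same.

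Within 1q21 the peaks formed runs, groups in which each summit lay under 10 kb from the next. In ERG shRNA, 206 of 260 peaks of 1q21 (79.2%, 73.8 to 84.0) had a summit of their own list within that distance, against 34.1% on the rest of chromosome 1 and 35.2% over the whole list. In ERG shRNA 2 it was 6 of 10, against 71.1% over the whole list. In control it was 236 of 295 (80%, 75.0 to 84.4), against 31.1% on the rest of chromosome 1 and 38.4% over the whole list. The median distance to the nearest summit was 2269 bp in 1q21 against 32646.5 bp on the rest of the chromosome in ERG shRNA, and 1932 bp against 35754 bp in control. Spacing follows from density, which chose the interval, and it was just as short at the first 1 Mb of the chromosome, at 2546 bp in ERG shRNA and 1470 bp in control. Runs of at least 5 peaks held 131 ERG shRNA peaks of 1q21 (50.4%) and 175 control peaks (59.3%), against 30 of 1130 and 57 of 1074 on the rest of chromosome 1.

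**Figure D3:**
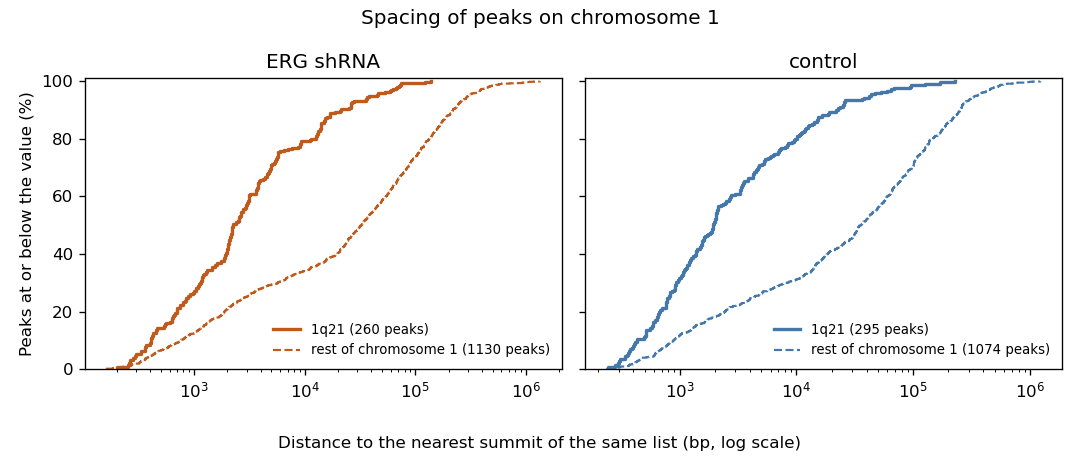
Cumulative share of peaks (percent) against the distance to the nearest summit of the same list (bp, log scale), for ERG shRNA on the left and control on the right, with 1q21 as solid and the rest of chromosome 1 as dashed lines. The solid lines lie to the left throughout the middle range, with medians of 2269 and 1932 bp against 32646.5 and 35754 bp.

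The fullest runs differed between the lists. The longest ERG shRNA run by number of peaks had 25 peaks over 75.4 kb, at chr1:148247454-148322900, where control had 10 peaks and overlapped 5 of the 25. The next had 16 peaks at chr1:145306430-145364473, with 4 control peaks, and the third 12 peaks at chr1:148664795-148682357, with 8 control peaks. None of the 3 contained an ERG shRNA 2 peak. In control the fullest run had 20 peaks over 38.0 kb, at chr1:143726230-143764229, where ERG shRNA had 6 peaks and overlapped 3 of the 20. The next had 19 peaks at chr1:148209386-148262790, with 7 ERG shRNA peaks, and the third 15 peaks at chr1:148771295-148815871, with 3 ERG shRNA peaks of which none overlapped. The end of the second control run and the start of the first ERG shRNA run lie over each other. Distances between all pairs of summits up to 20 kb, counted in steps of 200 bp, did not pile up at one value: the fullest step held 14 of 659 pairs in ERG shRNA, with a median of 6 per step, and 22 of 955 pairs in control, with a median of 9.

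Individual peaks in 1q21 were low. The pileup, the number of extended tags over the summit, is not compared between libraries because their depths differed: the headers gave 4853617 tags for ERG shRNA, 52175068 for ERG shRNA 2 and 9258451 for control. In ERG shRNA the pileup ranged from 3 to 10 with a median of 5 in 1q21, against a median of 5 and a highest value of 203 on the rest of chromosome 1. In ERG shRNA 2 it ranged from 10.5 to 16.0 with a median of 12.9, after the authors' scaling to the input. In control it ranged from 4 to 19 with a median of 6, against a median of 6 and a highest value of 29. The peak caller's cutoff, a p of 0.001, allowed a pileup as low as 3 in ERG shRNA and 4 in control at the median background of 1q21, so most peaks were 1 to 3 tags above the smallest pileup that could be called. In ERG shRNA 2 that smallest pileup was 9.

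Fold enrichment is the pileup plus 1 over the local background plus 1. Its highest value was lower in 1q21 than on the rest of chromosome 1 in ERG shRNA and control. In these lists the rest holds more peaks, and a maximum depends on the number of peaks. The highest fold was 8.15 in 1q21 against 147 on the rest of chromosome 1 in ERG shRNA, 5.58 against 4.69 in ERG shRNA 2, and 8.74 against 18.2 in control. Median fold was 4.22 (95% interval 4.14 to 4.45) in 1q21 against 4.16 (4.14 to 4.45) in ERG shRNA, and 4.26 (4.26 to 4.61) against 4.62 (4.45 to 4.64) in control, and in both lists these intervals overlap. A fold of at least 5 was reached by 43 of 260 ERG shRNA peaks (16.5%, against 16.2% on the rest of chromosome 1 and 17.4% over the whole list), by 1 of 10 ERG shRNA 2 peaks (7.16% over the whole list) and by 70 of 295 control peaks (23.7%, against 28.9% on the rest and 26% over the whole list). A q of at most 0.05 was reached by 174 ERG shRNA peaks (66.9%, against 73.5% on the rest and 72.6% over the whole list), by 1 of 10 ERG shRNA 2 peaks (8.31% over the whole list) and by 233 control peaks (79.0%, against 82.6% on the rest and 79.8% over the whole list). The difference in that share was -6.62 percentage points in ERG shRNA (95% Newcombe interval -13.1 to -0.57) and -3.60 points in control (-9.05 to 1.28). A −log10 q of at least 5 was reached by 11 ERG shRNA, 0 ERG shRNA 2 and 7 control peaks of 1q21. That share differed from the rest of chromosome 1 by -1.96 points in ERG shRNA (-4.39 to 1.46) and by -5.17 points in control (-7.29 to -2.34).

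Peaks were somewhat wider in 1q21 than on the rest of chromosome 1 in both longer lists. The median was 119.5 bp (115 to 132) in 1q21 against 115 bp in ERG shRNA, 210 bp in the 10 ERG shRNA 2 peaks, and 180 bp (171 to 190) against 161 bp (157 to 164) in control. Such widths were not particular to 1q21. At the first 1 Mb of the chromosome the median was 123 bp in ERG shRNA and 186.5 bp in control. In windows of the rest with at least 10 peaks of either list it was 115 bp and 163 bp. A peak cannot be narrower than the length to which tags were extended, 115 bp in ERG shRNA, 154 bp in ERG shRNA 2 and 148 bp in control. In ERG shRNA 47.7% of 1q21 peaks had exactly that width, against 55.1% on the rest and 54.9% over the whole list. In control it was 32.2%, against 40.1% on the rest and 40.3% over the whole list. The difference in that share was -7.44 points in ERG shRNA (-14.1 to -0.72) and -7.93 points in control (-13.8 to -1.69). The ERG shRNA median on the rest of the chromosome stands at the 115 bp minimum, and cannot be lower. Together the peaks covered 0.496% of 1q21 in ERG shRNA, 0.0265% in ERG shRNA 2 and 0.751% in control, against 0.0656%, 0.000194% and 0.0855% of the rest of chromosome 1.

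The local background at the ERG shRNA and control peaks was higher in 1q21 than on the rest of chromosome 1. It was recovered from pileup and fold and is given relative to the lowest background of the same list, the floor that the caller uses where the input is not raised locally. The median was 1.63 in 1q21 against 1.13 on the rest of chromosome 1 in ERG shRNA, and 1.27 against 1.13 in control. On the other chromosomes it was 1.32 in ERG shRNA and 1.27 in control, so the control median of 1q21 was the same as there. Over the 10 peaks of ERG shRNA 2 it was 3.26, against 5.56 on the other chromosomes. In tags the 1q21 medians were 0.338 in ERG shRNA and 0.645 in control, on floors of 0.207 and 0.507. Each of these medians equals the library's total over the input total, that is 1 scaled input tag. The 1.63 and 1.27 are thus the same step over unlike floors, and are not compared between libraries. Both headers gave an input total of 14360465 tags, so the lists are not taken as independent observations of the background. Only 27 of 260 ERG shRNA peaks (10.4%, 6.96 to 14.8) stood on the lowest background, against 490 of 1130 (43.4%) on the rest of chromosome 1 and 34% over the whole list, a difference of -33.0 points (-37.3 to -27.8). None of the 10 ERG shRNA 2 peaks did, against 5.77% over the whole list. In control 66 of 295 did (22.4%, 17.8 to 27.6), against 438 of 1074 (40.8%) on the rest and 32.4% over the whole list, a difference of -18.4 points (-23.7 to -12.5). At the first 1 Mb of the chromosome, where spacing was as short, 46.4% of ERG shRNA and 44.4% of control peaks stood on the lowest background, and in the 34 fuller windows of the rest, each with at least 10 peaks of either list, it was 40.4% and 42.1%. Both sets of windows were picked after their counts were seen.

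**Figure D4:**
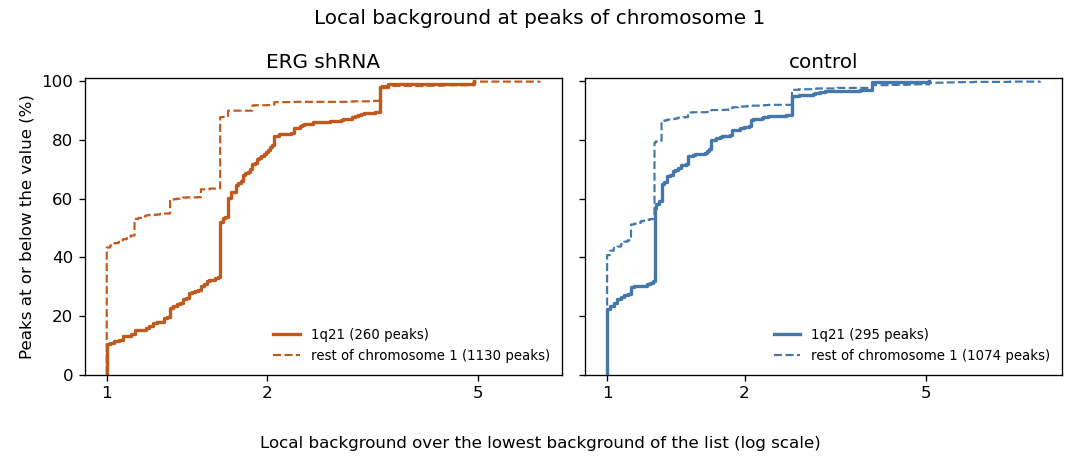
Cumulative share of peaks (percent) against the local background divided by the lowest background of the list (log scale), for ERG shRNA on the left and control on the right, with 1q21 as solid and the rest of chromosome 1 as dashed lines. The solid lines start lower at 1, where 10.4% and 22.4% of 1q21 peaks stand against 43.4% and 40.8% of the others.

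Overlap between the ERG shRNA and control lists differed by less than counting error between 1q21 and the rest of chromosome 1. A control peak overlapped 37 of 260 ERG shRNA peaks by at least 1 bp (14.2%, 10.2 to 19.1), against 160 of 1130 on the rest of chromosome 1 (14.2%) and 14% over the whole list. The difference was 0.07 percentage points (-4.23 to 5.21). ERG shRNA 2 overlapped 1 of the 260 ERG shRNA peaks (0.306% over the whole list) and 1 of the 295 control peaks (0.284% over the whole list). In turn an ERG shRNA peak overlapped 40 of 295 control peaks (13.6%, 9.87 to 18.0), against 159 of 1074 (14.8%) and 13.5% over the whole list, a difference of -1.25 points (-5.36 to 3.57). Control peaks covered 0.751% of 1q21 and 0.0855% of the rest of the chromosome, so the sequence available for overlap differed where the shares did not detectably differ. Within 1000 bp of a control peak lay 33.8% of ERG shRNA peaks in 1q21 against 24.7% on the rest and 23.8% over the whole list, and within 1000 bp of an ERG shRNA peak lay 32.2% of control peaks against 23.7% on the rest and 22.9% over the whole list. Crowded parts of the rest had like or larger shares, at 31.2% of ERG shRNA and 29.3% of control peaks in its 34 fuller windows, and 62.5% and 50% at the first 1 Mb. Where the lists did overlap, summits were a median of 53 bp apart in 1q21 against 36 bp on the rest. At 148 to 149 Mb, 16 of 79 ERG shRNA peaks (20.3%) and 18 of 86 control peaks (20.9%) were overlapped, against 21 of 181 and 22 of 209 in the other 7 windows. That difference was 8.65 points (-0.55 to 19.5) for ERG shRNA and 10.4 points (1.65 to 20.8) for control. The window was picked as the fullest in both lists, so these intervals do not decide whether overlap differed there. Whether crowding has a part in it was not tested. The windows on either side had like shares of ERG shRNA peaks overlapped, 4 of 18 (22.2%) at 147 to 148 Mb and 4 of 20 (20%) at 149 to 150 Mb, with 4 of 31 (12.9%) and 4 of 38 (10.5%) of control peaks.

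Among ERG shRNA peaks of higher fold enrichment, overlap was less frequent in 1q21. A control peak overlapped 8 of 43 ERG shRNA peaks of 1q21 with a fold of at least 5 (18.6%, 8.39 to 33.4), against 77 of 183 on the rest of chromosome 1 (42.1%, 34.8 to 49.6), a difference of -23.5 points (-34.9 to -7.84). For control peaks it was 15 of 70 in 1q21 (21.4%, 12.5 to 32.9) against 95 of 310 (30.6%, 25.6 to 36.1), a difference of -9.22 points whose interval, -18.8 to 2.78, includes 0. Of the 20 ERG shRNA peaks with the highest fold, 5 were overlapped in 1q21 against 18 on the rest, and of the 20 such control peaks 5 against 17. These sets of 20 do not match in fold, which ran from 5.73 to 8.15 in 1q21 against 8.29 to 147 on the rest in ERG shRNA, and from 5.97 to 8.74 against 8.62 to 18.2 in control. With the rest of chromosome 1 limited to folds from 5 up to the highest of 1q21, the shares were 18.6% against 36.9% in ERG shRNA, a difference of -18.3 points (-30.1 to -2.60), and 21.4% against 28.4% in control, a difference of -6.95 points (-16.6 to 5.03). Below a fold of 5 the order was the other way, at 13.4% in 1q21 against 8.77% in ERG shRNA (difference 4.60 points, 0.23 to 10.0) and 11.1% against 8.38% in control (2.73 points, -1.36 to 7.83). The split by fold was chosen after the peaks were seen, and whether the lists' unequal depth has a part in it was not tested.

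**Figure D5:**
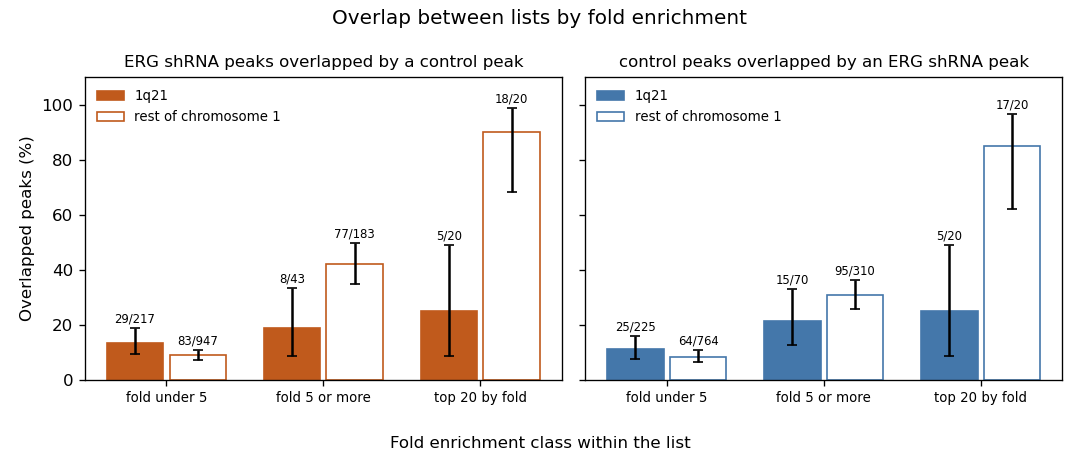
Percent of ERG shRNA peaks overlapped by a control peak (left) and of control peaks overlapped by an ERG shRNA peak (right), by fold class, with 1q21 as filled and the rest of chromosome 1 as open bars, exact 95% intervals as lines and counts above. Filled bars stay at or below 25% in every class, and open bars reach 90% and 85% for the 20 peaks of highest fold.

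Several single peaks show what an overlap in 1q21 looks like. The control peak of highest fold, at chr1:146847269-146847464, had a pileup of 10 and a fold of 6.56 in ERG shRNA, against a pileup of 19 and a fold of 8.74 in control, and the summits were 1 bp apart. The ERG shRNA peak of highest fold, at chr1:146793819-146793980, had a pileup of 10 and a fold of 8.15 in ERG shRNA, against a pileup of 9 and a fold of 5.38 in control. Both lie at 146 to 147 Mb, the window with the fewest ERG shRNA peaks. The peak at chr1:147345714-147345858 had a pileup of 9 and a fold of 7.20 in ERG shRNA, against a pileup of 8 and a fold of 4.61 in control. None of these 3 sites had an ERG shRNA 2 summit within 1 Mb.

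Other peaks of high fold had no counterpart, though often a neighbour. The ERG shRNA peak at chr1:148811733-148811919 had a pileup of 8 and a fold of 7.46, with the nearest control summit 206 bp away and no control peak over it. The ERG shRNA peak at chr1:148844196-148844314 had a pileup of 9 and a fold of 6.97, and the nearest control summit was 1970 bp away. The control peak at chr1:143730450-143730613 had a pileup of 11 and a fold of 7.63, and the nearest ERG shRNA summit was 1514 bp away. The control peak at chr1:144502425-144502630 had a pileup of 10 and a fold of 7.30, and the nearest ERG shRNA summit was 14951 bp away. The absence of a peak in a list is the absence of a call at p 0.001, not a measured level of 0.

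Of the 10 peaks of ERG shRNA 2, 1 was overlapped by an ERG shRNA peak and another by a control peak, each a share near that of the whole list. One, at chr1:142584067-142584246, was overlapped by an ERG shRNA peak whose summit was 10 bp away (1 of 10, against 12% over the whole ERG shRNA 2 list). Another, at chr1:148850501-148850691, was overlapped by a control peak whose summit was 58 bp away (1 of 10, against 11.8% over the whole list). The other 8 were overlapped by neither, and 8 of the 10 lay within 10 kb of an ERG shRNA summit (31.4% over the whole list) and 6 within 10 kb of a control summit (43.4% over the whole list). Such closeness was common in 1q21. There 74.6% of control peaks lay within 10 kb of an ERG shRNA summit (40.4% over the whole list). Of ERG shRNA peaks there, 74.6% lay within 10 kb of a control summit (40.8% over the whole list). Both ERG shRNA 2 peaks on the rest of chromosome 1 also lay within 10 kb of summits of both other lists. The peak of highest fold was at chr1:148859256-148859475, with a pileup of 14.04, a fold of 5.58 and a −log10 q of 2.53, the only one of the 10 with a q of at most 0.05. Its nearest summits were 309 bp away in ERG shRNA and 245 bp away in control. It was part of a run of 4 peaks over 11.5 kb, at chr1:148847978-148859475, within which ERG shRNA and control had 2 peaks each. The remaining 9 had folds of 3.005 to 4.20. No site of 1q21 was called with overlapping peaks in all 3 lists. Shares overlapped by both other lists or by neither were not counted over the whole list, so these counts are not read as particular to 1q21.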

How the data were processed

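Chromatin bound by p53 was measured by ChIP-seq in 3 VCaP libraries, 1 per group (per the labels' protocols, at least 3 immunoprecipitations pooled per library, 18 PCR cycles). The submitters' processing notes list MACS2, Bowtie2, bedtools and Picard 2.14.0 with build hg19, and what the last 3 did was not given in the sources used here. Peaks were narrow peaks of MACS 2.2.7.1, made per library with an input, a p cutoff of 0.001 and no more than 1 tag per position, per the file headers. Pileup was read as the coverage signal at the summit, and fold as the ratio of pileup plus 1 to local background plus 1. The deposited p and q were read as −log10 values. Some column names were damaged in the deposited sheets and were read by position. The headers state that q would be given as a fixed placeholder, yet the column read as q holds values. Its identity as q therefore rests on its position. The second sheets held the same coordinates and were otherwise not used.

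From the deposited lists, members were taken by summit. Overlap needed 1 bp or more. Local background was recovered as (pileup + 1) / fold − 1, and a value within 1.01 times the lowest of its list counted as lowest. Intervals are exact Clopper-Pearson for shares, order-statistic for medians and Newcombe for differences, at 95%. No test between groups was run. Calculations used scipy 1.17.1, pandas 2.3.3 and numpy 2.4.6 under Python 3.11.15, figures used matplotlib 3.10.9, and overlap and distance rules were tested on 17986 simulated peaks, of which 0 were misassigned. Named peaks were the 5 of highest fold per list, overlapped and not overlapped, every ERG shRNA 2 peak and the 3 fullest runs per list. The interval, the members and these rules were chosen with earlier results of these data known. A detail of the cell line's genotype is not reported here. No peak was assigned to a gene, because the gene table is on GRCh38.p14. Alternatives tried were stricter peak lists, merged peaks, other overlap rules and leaving out the fullest window.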

Additional observations from a re-analysis of the deposited data

Results flagged for a closer look

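The shares given here were picked because the ERG shRNA and ERG shRNA 2 libraries lie on opposite sides of the control library. The windows not listed went the same way in both. At 142 to 143 Mb both were above control, by 0.136 points in ERG shRNA and 0.604 points in ERG shRNA 2. At 144 to 145, 146 to 147 and 147 to 148 Mb both were below it. None of these differences was tested: each group has 1 library, and the ERG shRNA 2 values rest on 10 peaks in 1q21, with 0 to 4 in a window.

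The share of the whole list that lies in 1q21 differed from control by -0.139 percentage points in ERG shRNA and by 0.669 points in ERG shRNA 2. By window, at 143 to 144 Mb the share of the list differed from control by -0.0244 points in ERG shRNA and by 0.195 points in ERG shRNA 2. At 145 to 146 Mb it differed by 0.0498 points in ERG shRNA and by -0.0945 points in ERG shRNA 2. At 148 to 149 Mb it differed by -0.0221 points in ERG shRNA and by 0.446 points in ERG shRNA 2, and at 149 to 150 Mb by -0.0958 points in ERG shRNA and by 0.0197 points in ERG shRNA 2. The share of chromosome 1 peaks that lie in 1q21 differed from control by -2.84 points in ERG shRNA and by 61.8 points in ERG shRNA 2, where the list has 12 peaks on the chromosome.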

How the results depend on the processing

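Of 97 recomputed values, 64 stayed within 1.5 times the reported count or within the 95% interval of the reported value, and 33 did not. For ERG shRNA 2 those intervals are wide, and values inside them ranged to a density ratio of 85.8 and a median spacing of 14526 bp. With a fold of at least 5, 1q21 held 43 peaks in ERG shRNA, 1 in ERG shRNA 2 and 70 in control. The density ratios were then 7.09 in ERG shRNA and 6.81 in control. With a −log10 q of at least 5 it held 11, 0 and 7 peaks, with density ratios of 4.74 in ERG shRNA and 2.61 in control. At both of these settings the ratio was higher in ERG shRNA than in control, the reverse of the order in the full lists. The other settings kept the control ratio higher. With a −log10 q of at least 1.3, median fold was 4.58 in ERG shRNA, 5.58 in ERG shRNA 2 and 4.64 in control, median spacing in ERG shRNA was 3709 bp, and ERG shRNA 2 kept 1 peak with a background of 2.07. Without the densest window the density ratio was 5.52 in ERG shRNA and 6.71 in control, and ERG shRNA 2 had 6 peaks. Over occupied 100 kb bins only, an alternative chosen after seeing the data, it was 3.95 and 4.71. Merging peaks within 1000 bp gave a control density ratio of 6.86 and spacings of 3904 bp in ERG shRNA and 4169 bp in control. Overlap of ERG shRNA peaks was 8.85% at a reciprocal overlap of 50%, 33.8% within 1000 bp and 9.09% (1 of 11) with both lists at a −log10 q of at least 5. Overlap of control peaks was 7.80% at the reciprocal rule and 32.2% within 1000 bp. ERG shRNA 2 had 0% overlap with control when both lists were held to a −log10 q of at least 1.3, at equal list lengths or without the densest window, and 0% with ERG shRNA at the first and second of these. The cause of each shift was not tested beyond the smaller sets these settings leave. The limit of these data is 1 library per group and in ERG shRNA and control, median pileups of 5 and 6 tags. No paired analysis was possible because no group has a second library.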
